A study of Mus musculus with 37 samples.

Results

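The CXC chemokine genes followed here were Cxcl1, Cxcl2, Cxcl3, Cxcl9, Cxcl10, Cxcl11, Cxcl14 and Cxcl16, chosen by symbol from the 24016 genes of an RNA-seq table of bone marrow-derived macrophages (BMDMs). All 8 had a row, and 5 of them (Cxcl1, Cxcl2, Cxcl3, Cxcl10 and Cxcl16) were among the 40.5% of genes with the highest expression in WT cells, over which comparisons were counted and which are called the genes analyzed. Cxcl1 was among these genes only through its WT level at 24 h. Cxcl9, Cxcl11 and Cxcl14 had at most 50 reads in any library and are described by their levels and reads, outside the counts. The cells were grown for 6 days with M-CSF, the growth factor of macrophages, from the marrow of male C57BL/6J (WT) mice and of Arntl-/- mice 6 to 9 weeks old, in which the gene of the clock transcription factor Bmal1 is deleted in every tissue. The study's methods give the Arntl-/- mice a C57BL/6 background. The labels and those methods give the WT mice as purchased, whereas the study's results call them littermates of the Arntl-/- mice. Any remaining difference in background between the groups cannot be told apart from the deletion. The cells were left untreated (0 h) or kept for 6, 24 or 48 h with Kdo2-lipid A (KLA), the defined part of bacterial LPS that activates TLR4. Each of the 8 conditions had 1 library and the number of mice behind it is not given in the sources used here, so no difference below has a replicate check and none was tested. Intervals below are exact 95% intervals of the counted reads. They cover counting error only and are too narrow, since the paired ends and PCR copies of a fragment are not independent.

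CXC chemokines are small secreted proteins, named for a pair of cysteines separated by 1 residue, that steer leukocytes along gradients through G protein-coupled receptors. Cxcl1, Cxcl2 and Cxcl3 carry the ELR motif before those cysteines, bind Cxcr2 and draw neutrophils. Cxcl9, Cxcl10 and Cxcl11 bind Cxcr3 on activated T cells and NK cells and are known as interferon-inducible genes. Cxcl14 is made mainly by epithelial and stromal cells, and Cxcl16 is held in the membrane as a ligand of Cxcr6 and a scavenger receptor until it is shed. In macrophages, TLR4 acts on Cxcl1, Cxcl2 and Cxcl3 chiefly through NF-kB, whereas Cxcl10 also answers to the interferon that TLR4 induces.

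The 6 genes for the ligands of Cxcr2 and Cxcr3 lie on chromosome 5 of the mm9 genome. On the plus strand, Cxcl3 (91215127 to 91217119) was followed after 103 kb by Cxcl1 (91320271 to 91322141) and after a further 10.8 kb by Cxcl2 (91332925 to 91334964). On the minus strand, 1415 kb beyond Cxcl2, Cxcl9 (92750357 to 92757105), Cxcl10 (92775665 to 92777915) and Cxcl11 (92788571 to 92792303) were separated by 18.6 and 10.7 kb. Cxcl14 lies on chromosome 13 (56390006 to 56397912, minus strand) and Cxcl16 on chromosome 11 (70267736 to 70273486, minus strand).

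The 250 bases before the RefSeq start of each gene are shown for Cxcl1, Cxcl2, Cxcl3 and Cxcl10, the 4 of the 8 members with a match to the NF-kB motif GGGANNTTCC. They were read from the mm9 genome, 5' to 3' on the gene's strand, at chr5:91320021-91320270 (plus) for Cxcl1, chr5:91332675-91332924 (plus) for Cxcl2, chr5:91214877-91215126 (plus) for Cxcl3 and chr5:92777916-92778165 (minus) for Cxcl10. Capitals mark motif matches, and the last base of each line is the base before the start.
Cxcl1: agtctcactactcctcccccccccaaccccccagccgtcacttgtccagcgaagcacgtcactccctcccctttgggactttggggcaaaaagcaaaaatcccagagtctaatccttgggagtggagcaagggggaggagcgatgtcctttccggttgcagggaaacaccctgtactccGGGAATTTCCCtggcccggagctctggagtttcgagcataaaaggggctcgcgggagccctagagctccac
Cxcl2: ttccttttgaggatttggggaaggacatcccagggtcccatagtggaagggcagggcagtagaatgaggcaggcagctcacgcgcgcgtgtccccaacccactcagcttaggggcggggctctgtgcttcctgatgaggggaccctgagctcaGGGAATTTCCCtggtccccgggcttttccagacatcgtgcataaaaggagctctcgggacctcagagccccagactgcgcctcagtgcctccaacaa
Cxcl3: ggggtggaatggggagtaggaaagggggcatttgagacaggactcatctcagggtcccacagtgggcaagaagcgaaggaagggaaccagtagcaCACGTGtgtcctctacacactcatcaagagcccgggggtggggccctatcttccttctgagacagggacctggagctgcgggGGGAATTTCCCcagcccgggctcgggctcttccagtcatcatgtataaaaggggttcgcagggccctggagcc
Cxcl10: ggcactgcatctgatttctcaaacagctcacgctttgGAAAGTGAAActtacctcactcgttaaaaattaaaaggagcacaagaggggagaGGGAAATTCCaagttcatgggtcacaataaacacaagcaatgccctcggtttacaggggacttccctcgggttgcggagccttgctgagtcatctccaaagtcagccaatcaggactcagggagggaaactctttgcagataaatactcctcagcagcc
In Cxcl1, Cxcl2 and Cxcl3 the capitals GGGAATTTCCC are the same 11 bases, at 71 to 61, 97 to 87 and 73 to 63 bases before the start, and hold 2 overlapping matches to the motif, 1 on each strand. Cxcl10 has GGGAAATTCC at 159 to 150 bases and, at 213 to 204 bases, GAAAGTGAAA, a match to the interferon-response motif GAAANNGAAA, which Cxcl14 also holds, at 172 to 163 bases. Cxcl3 alone of the 8 had the E-box CACGTG, the sequence that Bmal1 and Clock bind, at 155 to 150 bases. On either strand, 1.14% of the 23954 promoter windows of the same length held the NF-kB motif, 3.10% the interferon-response motif and 6.58% the E-box. The ROR and REV-ERB core sequence AGGTCA (12.4% of all windows) was found in Cxcl9 and Cxcl14. The window of Cxcl16 held none of these letters. A match describes the sequence and is not a shown binding site.

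All levels are scaled FPKM, that is FPKM over the size factor of its library (0.918 to 1.13), and the libraries held from 8587561 to 27036785 reads on genes. WT cells at 6 h were the deepest library and stood apart: the 972 most abundant genes lay a median log2 of -0.36 from their mean over the 8 libraries there, whereas the 972 least abundant lay at 0.14. For the abundant genes the other libraries farthest from the mean were WT at 48 h (0.31), Arntl-/- at 48 h (0.25) and Arntl-/- at 0 h (-0.20). For Arntl, the deleted gene, no Arntl-/- library reached the WT level, at 11.3 to 20.2 compared with 32.3 to 38.7 scaled FPKM. All 7 macrophage markers were over the floor of 3 reads in every library, and the most abundant, the lysozyme gene Lyz2, was at 7561 to 21812 scaled FPKM. Of the other cell types the cultures could hold, the 6 granulocyte genes summed to 7.58 to 56.0 scaled FPKM in WT and 29.0 to 140 in Arntl-/- cells, while Mpo of granulocyte precursors and Cd3e of T cells were listed at 0 in all 8 libraries. Summed, the 6 lymphocyte genes, with Cd79a the most abundant, were at 1.14 to 4.09 scaled FPKM in WT and 3.93 to 14.3 in Arntl-/- cells, and the 4 dendritic cell genes, with Ccr7 the most abundant, at 3.91 to 9.19 and 4.73 to 10.9.

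**Figure D1:**
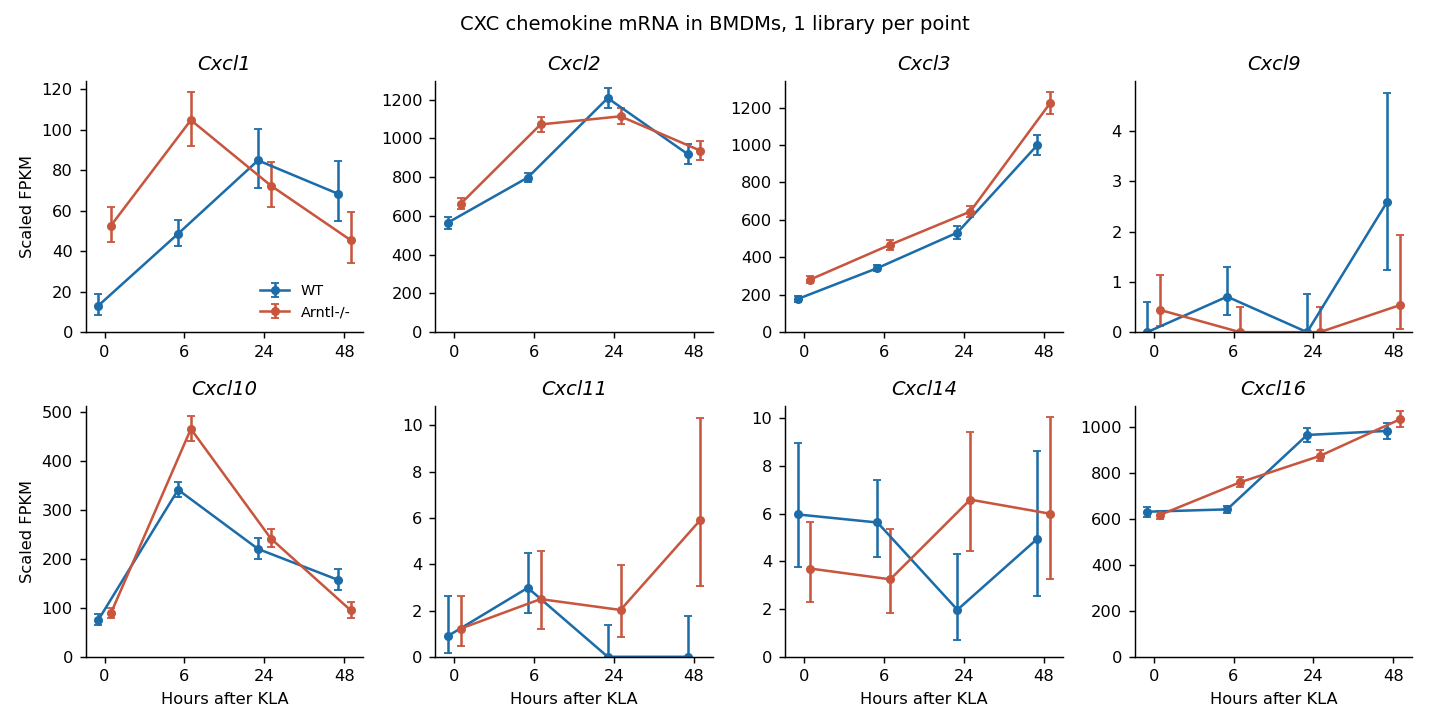
Scaled FPKM (y axis, linear, its own range in each panel) of the 8 CXC chemokines at 0, 6, 24 and 48 h after KLA (x axis, not to scale) in WT (blue) and Arntl-/- (red) BMDMs; points are single libraries and bars exact 95% counting intervals. Cxcl1 in Arntl-/- cells was highest at 6 h and in WT cells at 24 h, Cxcl3 was highest at 48 h in both, Cxcl10 was highest at 6 h in both, and Cxcl9, Cxcl11 and Cxcl14 stayed under 7 scaled FPKM.

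The 5 abundant members spanned a wide range of levels, with partly changing order. FPKM is per exon length, so the levels of different genes can be compared. In resting WT cells Cxcl16 (631) was above Cxcl2 (565), then Cxcl3 (177), Cxcl10 (74.6) and Cxcl1 (13.0). The counting intervals of neighbours overlapped for none of these 5, and the next pair, Cxcl1 and Cxcl14, did overlap. In resting Arntl-/- cells the order was Cxcl2, Cxcl16, Cxcl3, Cxcl10 and Cxcl1, and the intervals of Cxcl2 and Cxcl16 overlapped. At 6 and 24 h Cxcl2 was the most abundant in both genotypes. Cxcl3 and Cxcl10 could not be separated at 6 h, at 342 and 341 in WT and at 467 and 465 in Arntl-/- cells. At 48 h Cxcl3 was the highest in both, and in the WT library its interval overlapped that of Cxcl16. Cxcl2 was the 274th to 884th most abundant of all 24016 genes over the libraries.

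**Figure D2:**
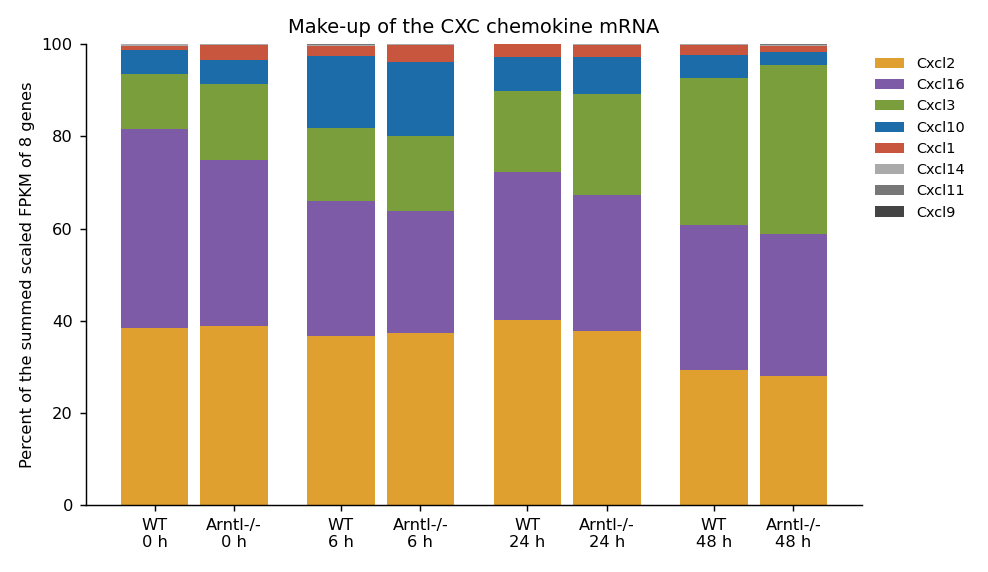
Share of each CXC chemokine in the summed scaled FPKM of the 8 genes (y axis, percent, stacked to 100) in each library (x axis, WT and Arntl-/- at 0, 6, 24 and 48 h after KLA). Cxcl3 made up 12.0% of the sum in WT cells at 0 h and 31.9% at 48 h, and Cxcl10 reached 15.6% in WT and 16.2% in Arntl-/- cells at 6 h.

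Summed over the 8 genes, the level in WT cells went through 1467, 2181, 3012 and 3135 scaled FPKM at the 4 times, and in Arntl-/- cells through 1708, 2874, 2955 and 3346. The Cxcr2 ligands made up 51.4 to 63.4% of it in WT cells and 57.2 to 65.9% in Arntl-/- cells, highest at 48 h in both. The Cxcr3 ligands, almost all of it Cxcl10, made up 15.8% and 16.3% at 6 h and 5.09% and 3.02% at 48 h. Cxcl16 was 43.0, 29.4, 32.0 and 31.3% of the sum at the 4 times in WT and 36.1, 26.4, 29.6 and 30.9% in Arntl-/- cells.

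Cxcl1 (RefSeq NM_008176), a main neutrophil attractant of the mouse, was the abundant member with the largest genotype ratio at 0 and 6 h, while Cxcl3 at 24 h and Cxcl10 at 48 h were farther from 1. Its WT levels at 0, 6, 24 and 48 h were 13.0, 48.6, 84.8 and 68.4 scaled FPKM, from 26, 224, 134 and 86 reads. The Arntl-/- levels were 52.6, 105, 72.4 and 45.4, counted from 155, 251, 171 and 55 reads. The Arntl-/- libraries were thus the higher ones at 0 and 6 h and the lower ones at 24 and 48 h, and resting Arntl-/- cells were at about the level that WT cells had after 6 h of KLA. The Arntl-/- to WT ratio was 4.05 (2.66 to 6.39) at 0 h, which 2 of the genes analyzed exceeded, and 2.15 (1.79 to 2.59) at 6 h, which 9 exceeded. At 24 h it was 0.853 (0.677 to 1.08), whose interval holds 1, and at 48 h 0.664 (0.465 to 0.943). The 0 h ratio rests on 26 WT reads, and the 48 h ratio lay at the 1.5-fold line, which it no longer passed with the values as deposited, with upper-quartile scaling or with a pseudocount of 1.

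Markers of other cell types differed between the genotypes at 0 h, and also at 24 and 48 h, when Cxcl1 was lower in Arntl-/- cells. Of the granulocyte genes, Ngp was at 37.2 in resting WT and 83.4 in resting Arntl-/- cells and Ltf at 18.9 and 42.4, while Elane and Mpo were listed at 0 in both. Ngp was also higher in Arntl-/- cells at 6 h (33.3 and 55.2), 24 h (17.1 and 38.4) and 48 h (0 and 2.70, from 0 and 4 reads). Ltf was at 7.67 in WT and 18.4 in Arntl-/- cells at 6 h and at 17.5 and 25.4 at 24 h, and was listed at 0 in both at 48 h. The 7 stromal and endothelial genes, of which 6 were over the floor in every library, summed to 420 to 1096 in WT and 334 to 683 in Arntl-/- cells. Most of that sum was collagen, with Col1a1 at 166 and 125 and Col3a1 at 80.4 and 43.4 at 0 h. Of the 6 genes analyzed, 2 were at least 1.5-fold lower in resting Arntl-/- cells and 1, Dcn, was higher, at 39.1 compared with 16.8, where 1.58% of all genes were lower and 2.18% higher. The part of either in the levels of Cxcl1 was not tested. Fewer cells of a kind and less RNA per cell cannot be told apart in bulk RNA.

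Cxcl2 (NM_009140), also called MIP-2, was abundant before KLA and varied least among the Cxcr2 ligands. The 4 WT libraries had 565, 798, 1209 and 919 scaled FPKM and the 4 Arntl-/- libraries 662, 1072, 1114 and 937, from 1291 to 4201 reads each. Both genotypes were highest at 24 h, at 2.14-fold (1.99 to 2.29) the resting level in WT and 1.68-fold (1.59 to 1.78) in Arntl-/- cells. The genotype ratios of 1.17, 1.34, 0.922 and 1.02 at 0, 6, 24 and 48 h all stayed inside 1.5-fold. At 6 h its log2 ratio of 0.43 was 0.08 after a correction of each library for a trend with expression level, and the macrophage markers had a median log2 ratio of 0.38 at the same time. In WT cells at 6 h the gene had 3.90 reads for each exon base, the most of any member and library, in counts the authors made with a limit of 3 tags a position, and the part of that limit in the values was not tested.

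Cxcl3 (NM_203320) was the only one of the 5 abundant members higher in Arntl-/- cells at all 4 times, and the only one at least 1.5-fold higher at 48 h than at 24 h in both genotypes. WT cells had 177, 342, 532 and 999.9 scaled FPKM and Arntl-/- cells 281, 467, 644 and 1224, from 379 to 1693 reads. Each Arntl-/- library was above its WT partner, by 1.59-fold (1.41 to 1.80) at 0 h, 1.37-fold (1.27 to 1.47) at 6 h, 1.21-fold (1.12 to 1.31) at 24 h and 1.22-fold (1.14 to 1.32) at 48 h, and only the resting ratio passed 1.5-fold. From 0 to 48 h the level was 5.66-fold higher in WT and 4.35-fold higher in Arntl-/- cells. Its transcript shares 61 stretches of 50 bases with Cxcl2, 6.35% of its own and 3.33% of those of Cxcl2, in which a read of that length could not tell the 2 genes apart, and Cxcl1 shares none with either.

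Cxcl10 (NM_021274), the interferon-inducible ligand also called IP-10, had the largest ratio of 6 h to 0 h among the abundant members in both genotypes and lower levels again after that. WT libraries had 74.6, 341, 219.9 and 157 scaled FPKM, and Arntl-/- libraries 89.0, 465, 241 and 94.6, from 133 to 1821 reads. The 6 h level was 4.57-fold (3.91 to 5.37) the resting one in WT and 5.22-fold (4.61 to 5.94) in Arntl-/- cells. By 48 h the Arntl-/- library was near its own resting level, whereas the WT library was still above its own. The ratio between genotypes was 1.19 (0.987 to 1.45), 1.36 (1.27 to 1.47) and 1.10 (0.968 to 1.24) at 0, 6 and 24 h and 0.603 (0.483 to 0.75) at 48 h, when 280 of the genes analyzed had a lower one. It overlaps 133 exon bases of Art3 on the other strand, a gene listed at 0 in 7 of the 8 libraries.

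The other Cxcr3 ligands were close to the limit of detection. Cxcl9 (NM_008599), an interferon-gamma target, had 26 reads over all libraries, 20 of them in WT cells, and was listed at 0 in 4 libraries. It reached 2.59 scaled FPKM in WT cells at 48 h from 10 reads, where Arntl-/- cells had 0.537 from 2 reads, and in the libraries at 0 the floor of 3 reads was 0.407 to 0.618. Cxcl11 (NM_019494) had 26 WT and 36 Arntl-/- reads. In WT cells it was 0.896 and 2.98 at 0 and 6 h and listed at 0 at 24 and 48 h, whereas Arntl-/- cells had 1.22, 2.49, 2.02 and 5.92. At 48 h the Arntl-/- library held 12 reads and WT none, so Arntl-/- was at least 4.15-fold higher against the floor of 3 reads in that library, and at least 2.89-fold by the exact counting limit, which also takes in the error of the 12 reads. GENCODE lists no protein-coding transcript of Cxcl11 in this build, and 1582 of its 3794 exon bases overlap the pseudogene Gm2673 on the other strand, with which unstranded reads are shared.

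Cxcl14 (NM_019568), a ligand better known from epithelia, was low throughout and had its widest genotype gap at 24 h. The WT libraries had 5.96, 5.63, 1.97 and 4.94 scaled FPKM and the Arntl-/- libraries 3.70, 3.24, 6.58 and 5.99, from 6 to 50 reads. Arntl-/- cells had the lower value at 0 and 6 h and the higher one at 24 and 48 h. Only at 24 h did the interval of the genotype ratio leave 1 out, at 3.34 (1.37 to 9.83) from 30 and 6 reads. Stromal cells are a known source of Cxcl14. Of the 6 analyzed stromal and endothelial genes, 2 were lower and 1 higher by 1.5-fold in Arntl-/- cells at 24 h, where 2.2% of all genes were lower and 2.61% higher. Col3a1 was at 46.9 compared with 125, and the 1 higher gene, the endothelial Pecam1, at 45.1 compared with 28.1. The part of stromal cells in the few reads of Cxcl14 was not tested.

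Cxcl16 (NM_023158), the transmembrane member, had the most reads of the 8 over all libraries, from 3200 to 7648 a library, and stayed within 1.5-fold between genotypes at all 4 times. WT cells were at 631, 641, 965 and 983 scaled FPKM and Arntl-/- cells at 617, 759, 874 and 1033, so that both had their higher levels at 24 and 48 h. The genotype ratios were 0.978, 1.18, 0.906 and 1.05. From 0 to 6 h the WT ratio was 1.02 (0.975 to 1.06) and the Arntl-/- ratio 1.23 (1.18 to 1.28), whereas from 6 to 24 h the log2 changes were 0.59 in WT and 0.20 in Arntl-/- cells. Both intervals use the WT 6 h library, and after the correction for expression level the genotype log2 ratio at 6 h was -0.08 and not 0.24. From 0 to 24 h, which does not use that library, the genotypes had 1.53-fold (1.46 to 1.60) and 1.42-fold (1.36 to 1.47). Of its 3021 annotated exon bases, 552 overlap Zmynd15 on the opposite strand, whose deposited FPKM was 168 to 322, and counting on both strands cannot separate reads over those bases.

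Next, the genotypes were compared at each time over the 5 abundant members, which asks whether loss of Bmal1 shifts the chemokines before and during the response. In resting cells 2 of 5 were at least 1.5-fold higher in Arntl-/- cells (Cxcl1 and Cxcl3) and 0 lower, where 2.18% of all genes analyzed were higher and 1.58% lower. At 6 h 1 was higher (Cxcl1) and 0 lower, beside 1.88% and 1.78% of all genes. At 24 h 0 were higher and 0 lower, beside 2.61% and 2.2%. At 48 h 0 were higher and 2 lower (Cxcl1 and Cxcl10), beside 4.27% and 4.91%. The median log2 ratio of the 5 members was 0.25, 0.45, -0.12 and 0.03 at the 4 times, and that of all genes -0.02, 0.01, -0.00 and -0.02. All 5 members had a ratio above 1 at 6 h, but with the correction for expression level the log2 ratio of Cxcl16 was -0.08 and that of Cxcl2 0.08. With that correction the median of the members was 0.42, 0.25, 0.03 and 0.07 at the 4 times. Without size factors, all genes had a median of -0.12 at 6 h and the members 0.31, and over all genes 55 were higher and 371 lower, compared with 183 and 173. At 0 h the same values gave 325 higher and 98 lower, compared with 212 and 154, and at 24 h 337 and 171, compared with 254 and 214.

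**Figure D3:**
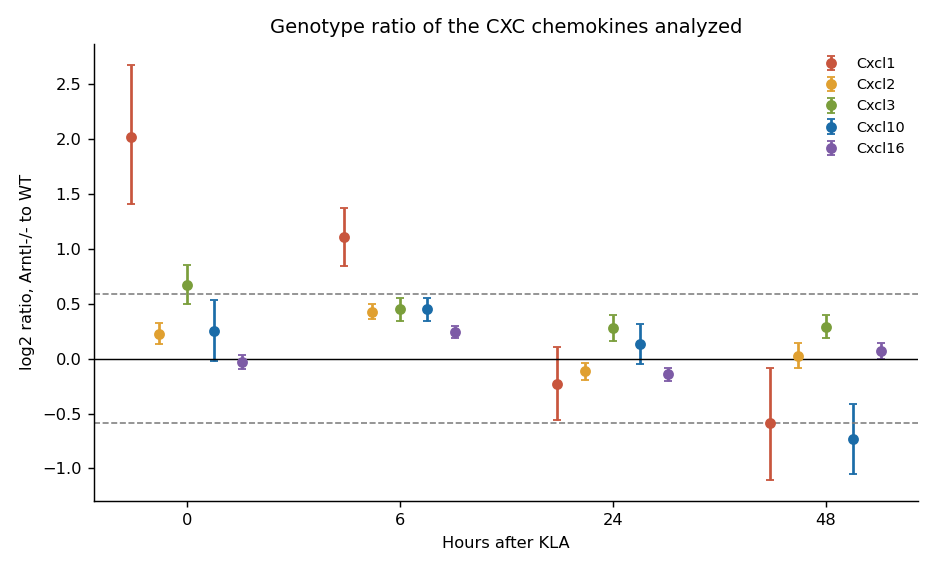
Log2 ratio of Arntl-/- to WT (y axis) of the 5 abundant CXC chemokines at 0, 6, 24 and 48 h after KLA (x axis); points are ratios of 1 library to 1 library, bars exact 95% counting intervals, dashed lines 1.5-fold. Cxcl1 goes from 4.05-fold higher at 0 h to 0.664-fold at 48 h, Cxcl3 lies above 0 at each time, and Cxcl10 is above 0 up to 24 h and at 0.603-fold at 48 h.

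The response to KLA was then followed within each genotype, which asks when the levels of the chemokine mRNAs change. From 0 to 6 h, 3 of the 5 members were at least 1.5-fold higher in WT cells (Cxcl1, Cxcl3 and Cxcl10) and 0 lower, where 4.31% of all genes were higher and 3.29% lower. In Arntl-/- cells 4 were higher (Cxcl2 as well, at 1.62-fold) and 0 lower, beside 2.79% and 2.58%. The side of the line that Cxcl2 took depended on the scaling. Its log2 change was 0.50 in WT and 0.70 in Arntl-/- cells. Without size factors these were 0.65 and 0.64, and 0.85 and 0.51 with the correction for expression level. Cxcl1 at 6 h was 3.74-fold (2.49 to 5.85) its low resting level in WT and 1.99-fold (1.62 to 2.45) its higher one in Arntl-/- cells. The medians of the 5 were 0.95 and 0.73 on the log2 scale, and those of all genes -0.03 and 0.01.

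Between 6 and 24 h, Cxcl1 was higher at the later time in WT and lower at the later time in Arntl-/- cells. Cxcl1 entered the genes analyzed only through its WT level at 24 h. Its higher WT value at that time, and its part in the counts here, are not independent of that choice. In WT cells 4 members were at least 1.5-fold higher at 24 h, Cxcl1 at 1.74-fold, Cxcl3 at 1.55-fold, Cxcl2 at 1.51-fold and Cxcl16 at a log2 of 0.59, and Cxcl10 was lower at 0.646-fold, where 7.55% of all genes were higher and 7.06% lower. In Arntl-/- cells 0 were higher and Cxcl10 alone was lower, at 0.519-fold, beside 5.11% and 5.35%. The ratio of Cxcl1 was 0.691 (0.566 to 0.843) there. The values of Cxcl2, Cxcl3 and Cxcl16 lay close to the line, and with the values as deposited or with the correction for expression level only Cxcl1 and Cxcl10 stayed past it. The macrophage markers had a median log2 of 0.68 over the same interval in WT cells and 0.38 in Arntl-/- cells.

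After 24 h, Cxcl3 was higher again in both genotypes, at 1.88-fold (1.73 to 2.05) in WT and 1.90-fold (1.77 to 2.04) in Arntl-/- cells. In WT cells it was the 1 member at least 1.5-fold higher and 0 were lower, where 7.04% of all genes were higher and 8.69% lower. In Arntl-/- cells it was also the 1 member higher, and Cxcl1 (0.627-fold) and Cxcl10 (0.392-fold) were the 2 lower, beside 5.84% and 8.33%. The medians of the 5 members were -0.31 and -0.25, and those of all genes 0.02 and -0.03. With the correction for expression level the Arntl-/- median was -0.55, and Cxcl1, at a log2 of -0.57, was no longer past the line. The share of calls that were upward moved with the scaling in these within-genotype comparisons. With the values as deposited, all genes split into 823 higher and 76 lower from 0 to 6 h in WT cells (419 and 320 with size factors), into 320 and 1417 from 6 to 24 h (734 and 686) and into 469 and 1142 from 24 to 48 h (684 and 845). In Arntl-/- cells the splits became 201 and 357 from 0 to 6 h (271 and 251, or 304 and 163 with the correction for expression level) and 371 and 1130 from 24 to 48 h (568 and 810, or 780 and 637 with upper-quartile scaling).

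**Figure D4:**
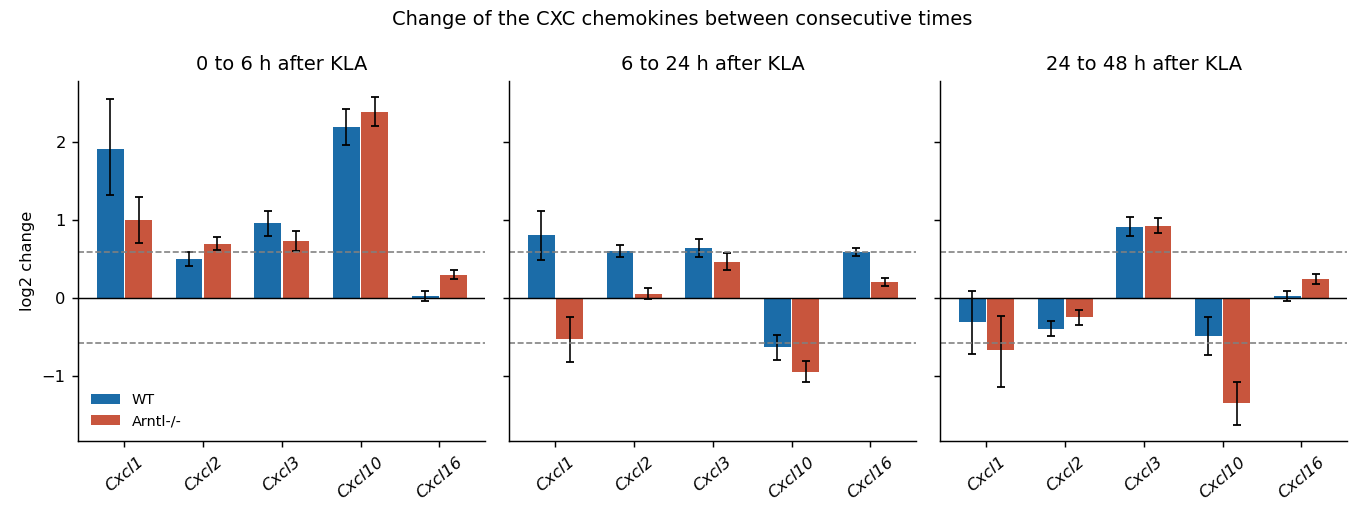
Log2 change (y axis) of the 5 abundant CXC chemokines between consecutive times after KLA, 1 panel an interval, in WT (blue) and Arntl-/- (red) cells; bars are ratios of single libraries, black bars exact 95% counting intervals and dashed lines 1.5-fold. From 6 to 24 h Cxcl1 was at 1.74-fold in WT and 0.691-fold in Arntl-/- cells, and from 24 to 48 h Cxcl10 was at 0.713-fold and 0.392-fold.

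Set directly against 0 h, the 24 h levels were 6.52-fold (4.26 to 10.3) for Cxcl1, 3.01-fold (2.67 to 3.41) for Cxcl3 and 2.95-fold (2.46 to 3.54) for Cxcl10 in WT cells. In Arntl-/- cells they were 1.38-fold (1.10 to 1.72), 2.29-fold (2.11 to 2.49) and 2.71-fold (2.36 to 3.12). The intervals of the 2 genotypes overlapped for Cxcl10 and not for Cxcl1 and Cxcl3, nor for Cxcl2, at 2.14-fold and 1.68-fold. The widest gap was that of Cxcl1, whose resting levels were 13.0 and 52.6, and which entered the genes analyzed only through its WT level at 24 h. Between consecutive times, the Arntl-/- minus the WT log2 change was largest for Cxcl1 from 6 to 24 h (-1.34, interval -1.75 to -0.92), for Cxcl1 from 0 to 6 h (-0.91, interval -1.56 to -0.26) and for Cxcl10 from 24 to 48 h (-0.86, interval -1.22 to -0.51). For Cxcl3 it was 0.02 from 24 to 48 h, where the genotypes had nearly the same ratio. The comparisons between genotypes and within them share libraries, and are different views of the same 8 values a gene.

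The genes around the chemokines were followed from lists of the pathway. Of 7 other CXC ligands 1 was among the genes analyzed, Pf4, the platelet factor 4 that macrophages also make, at 1435 to 2158 scaled FPKM in WT and 1707 to 2201 in Arntl-/- cells, and it was within 1.5-fold between the genotypes at all 4 times. Cxcl5, another ELR ligand of Cxcr2, was too low to be analyzed, at 14.9, 15.3, 25.7 and 39.98 in WT and 8.93, 4.29, 21.1 and 27.4 in Arntl-/- cells. It was lower in the Arntl-/- library at each time, most at 6 h, with 18 reads compared with 123. Of the 8 CXC receptors in the table Cxcr4, the receptor of Cxcl12, alone was analyzed. It was at 205 and 541 in WT and at 165 and 553 in Arntl-/- cells at 6 and 24 h. Cxcr2, the receptor of the neutrophil attractants, was at 0 to 5.26 and Cxcr3 at 7.48 to 26.4.

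Among the 8 analyzed enzymes that trim or shed CXC chemokines, Adam10 and Adam17, which shed Cxcl16, were within 1.5-fold between genotypes, and Mmp8, which cuts Cxcr2 ligands, was the 1 enzyme past the line, higher in Arntl-/- cells at 6 h at 1097 compared with 691, where 1.88% of all genes were higher. The 8 enzymes had a median log2 ratio of 0.45 at 6 h, and the macrophage markers 0.38, against the WT library in which abundant genes were low. The part of that library in these values was not tested. Ctss, the most abundant enzyme of the list by its mean over the libraries, was at 1857 in WT and 2652 in Arntl-/- cells at 6 h, when Ctsl was above it at 2011 and 2895. The interferon genes Ifnb1 and Ifng, were listed at 0 in all 4 WT libraries and at up to 2.05 and 0.665 scaled FPKM in Arntl-/- cells, from 4 and 2 reads, so that they were at or near the floor of 3 reads in all 8 libraries. Irf7, a transcription factor of the interferon response, had 237, 406, 735 and 1172 in WT and 282, 499, 789.6 and 1189 in Arntl-/- cells, highest at 48 h as Cxcl3 was, whereas Cxcl10 was highest at 6 h.

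All 16 genes of the NF-kB axis and of chemokine mRNA decay were analyzed. Between the genotypes 1 was at least 1.5-fold higher in Arntl-/- cells at 0 h (Il1b), 0 at 6 and 24 h, and 3 at 48 h (Rel, Bcl3 and Il1b), with 0 lower at any time. Over all genes 2.18, 1.88, 2.61 and 4.27% were higher at 0, 6, 24 and 48 h, and 1.58, 1.78, 2.2 and 4.91% lower. In a list of 16 genes, counts of 0 lie near such shares. Il1b, which encodes the inflammatory cytokine IL-1beta, was at 46.2, 162, 594 and 428 in WT and at 92.1, 199, 707 and 699 in Arntl-/- cells. It shared with Cxcl1 and Cxcl3 the higher resting level and, like Cxcl3 and unlike Cxcl1, was above WT at each time. Zfp36, whose product speeds the decay of chemokine mRNAs, was at 319, 442, 430 and 313 in WT and at 343, 517, 357 and 445 in Arntl-/- cells, within 1.5-fold throughout.

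Among themselves, Cxcl3 and Cxcl16 had the most alike profiles over the 8 libraries, with a Pearson's r of 0.913 of log2 values, followed by Cxcl1 and Cxcl2 at 0.841. Cxcl10 with Cxcl16 was at 0.07 and with Cxcl3 at 0.14. The points share their libraries, depth and scaling. Of all genes analyzed, the profiles most like that of Cxcl1 were Ccdc32 (0.947), Socs1 (0.939) and Crcp (0.930), where Socs1 encodes a feedback inhibitor of cytokine signaling. For Cxcl2 they were Cd82 (0.980), Rab32 (0.967) and Rnf214 (0.965), and for Cxcl10 Rexo4 (0.956), Sh3bp5l (0.946) and Rbm14-rbm4 (0.937). For Cxcl3 they were the interferon-induced Oas3 (0.984) and Oasl2 (0.983) and the class I gene H2-T22 (0.983). For Cxcl16 they were Nfkbia (0.991), the inhibitor of NF-kB that NF-kB itself induces, Golgb1 (0.990) and Cd14 (0.985), the co-receptor of TLR4. With another scaling or the correction for expression level, from 0 to 3 of the 3 genes were found again, depending on the member.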

How the data were processed

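PolyA RNA of BMDMs was sequenced in 8 libraries, 1 a condition. The paired-end reads were aligned by STAR to the mm9 genome. HOMER then counted them over exons of RefSeq genes, taking both strands, with 3 tags a position as its setting and 1 transcript kept for each gene. The authors deposited FPKM, in which every library was brought to 10000000 reads. After multiplication by exon length, low values (under 20 reads) were whole multiples of what 1 read is worth in 100% of cases, within 0.05 of a read, and this gave the reads behind each value and totals of 8587561 to 27036785. Of the value columns, 4 match no sample label and were not used, 1 broken line was dropped, and the ChIP-seq samples were not analysed here.

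Levels are FPKM over a size factor (median of ratios). The genes analyzed, 40.5% of 24016, had the highest WT maximum of scaled FPKM times length in kb (at least 74.5). Cxcl1 passed at 80.0, through the WT library at 24 h alone. Log2 ratios used a pseudocount of 0.1, and folds given with an interval used none. With 1 library a condition no test was made, and called means past 1.5-fold. Intervals of levels and ratios are exact (Clopper-Pearson for ratios, 95%). Those of a difference between 2 log2 changes are a normal approximation from the reads (95%). A value of 3 reads or fewer was at the floor. The members, lists and markers were chosen with earlier results of these data known. Named were all members, Arntl, the 3 genes most correlated with each analyzed member, analyzed list genes at least 1.5-fold apart in 1 direction at 2 or more times and the most abundant of each list. Other list and marker genes named here were chosen after their values were seen. The counts of 1 list and 1 of the motifs searched are not reported here.

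Alternatives were no size factors (the values as deposited), scaling by the upper quartile, a lowess correction (fraction 0.3) for expression level, pseudocounts of 1 and 0.01, 2-fold, genes with an FPKM of at least 1 (15855 genes) or at least 100 reads (11090), and no filter. Size factors from 7 libraries and the change from 0 to 24 h were added after seeing the data. The steps were tested on simulated data. Promoter windows were read from the NCBIM37 (mm9) genome, and the 6 windows that RefSeq's promoter table (GRCm38.p6) also holds were identical to it. Overlaps and transcripts are from GENCODE vM1. The software was Python 3.11.15 with statsmodels 0.14.6, scipy 1.17.1, matplotlib 3.10.9, pandas 2.3.3 and numpy 2.4.6.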

Additional observations from a re-analysis of the deposited data

Results flagged for a closer look

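From 6 to 24 h after KLA, Cxcl1 had a change of opposite sign in the 2 genotypes. Its log2 change was 0.80 in WT cells, from 224 to 134 reads in a less deep library, and -0.53 in Arntl-/- cells, from 251 to 171 reads, and both counting intervals leave no change out. The Arntl-/- change minus the WT change was -1.34 (95% counting interval -1.75 to -0.92). Whether the genotypes differ in this change was not tested, because each condition had 1 library. Cxcl1 also entered the genes analyzed only through its WT level at 24 h, which the WT change and the difference both use. The direction in each genotype was the same with the values as deposited, with upper-quartile scaling and with the correction for expression level.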

How the results depend on the processing

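Counts of members past 1.5-fold moved mainly with the filter. With genes of FPKM of at least 1, and equally with no filter, Cxcl9, Cxcl11 and Cxcl14 entered from few reads, and the counts between genotypes became 4, 3, 2 and 4 at 0, 6, 24 and 48 h, compared with 2, 1, 0 and 2. In WT cells they became 5, 8 and 3 for the intervals from 0 to 6, 6 to 24 and 24 to 48 h, compared with 3, 5 and 1, and Arntl-/- cells had 2 for 6 to 24 h and 5 for 24 to 48 h, compared with 1 and 3. At 2-fold, 1 member was left between genotypes at 0 h and 0 at 48 h, 0 in WT cells from 6 to 24 and from 24 to 48 h, and in Arntl-/- cells 1, 0 and 1 over the 3 intervals, compared with 4, 1 and 3. At 48 h the count between genotypes was 1 with the values as deposited, with upper-quartile scaling and with a pseudocount of 1. In WT cells, the values as deposited and the correction for expression level each gave 2 from 6 to 24 h and 2 from 24 to 48 h. The other counts stayed within 1.5 times. Leaving the WT 6 h library out of the size factors, chosen after seeing the data, kept all 7 counts that do not use it within 1.5 times. Of 535 recomputed ratios of single members, 493 stayed inside their counting interval and 42 did not, 18 of these with the values as deposited and 23 with the correction for expression level, and 0 ratios past 1.5-fold changed direction. With no filter the median log2 ratio then ran over all 8 members and changed sign between genotypes at 24 h (0.07), in WT from 6 to 24 h (-0.02) and from 24 to 48 h (0.01 in WT and 0.05 in Arntl-/- cells). No paired analysis was possible because no condition had replicates whose numbers could be paired. A fit that pairs the genotypes by time would take the 4 times as replicates of a genotype and was not run. Depth limits Cxcl9, Cxcl11 and Cxcl14, and resting Cxcl1 in WT cells.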
